A study of Sus scrofa with 6 samples.

Results

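Transcript levels of ovarian follicles at a middle stage of growth were compared with those of follicles labelled primordial, on 4 of the 6 Affymetrix porcine arrays of the study, 2 per stage, chosen by their titles. The follicles came from prepubertal gilts, pigs before their first cycle, and were sorted by morphology and diameter. No treatment or genotype distinguished the groups, and no age or breed is stated. The third stage, called last, gave the other 2 arrays, which entered the filter and the model's estimate of the spread and are set against the middle arrays at the end. Replicates are titled as biological, but nothing says that they came from separate animals. The p-values therefore reflect the spread between these samples alone, which may be technical. Of 6765 genes with 1 symbol in the platform annotation, 5432 passed the filter on dim probe sets (mean signal over the 6 arrays of at least 91.3) and were tested, each at its brightest probe set.

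A primordial follicle is an arrested oocyte enclosed by a single layer of flat granulosa cells, the somatic cells that feed it. Once growth starts, granulosa cells multiply, steroid-producing theca cells form outside them, and the oocyte enlarges while it takes up amino acids, pyruvate and nucleotides, largely through gap junctions. The growing oocyte makes and stores messenger RNA, so transport, receptors, metabolism and RNA handling are all known to matter at this stage.

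Arrays of a stage resembled each other, with Pearson's r across probe sets of 0.973 for the primordial and 0.966 for the middle pair, against 0.721 to 0.780 between stages. Some markers on the arrays labelled primordial, of granulosa cells of large follicles and of immune cells, went against that label. Most oocyte genes were dim on these arrays, as ZP3 at 67.4 and 75.5 and DPPA5 at 4.9 and 6.3, which alone does not go against the label. The germ cell gene DDX4 was dim there at 2.5 and 22.5, but also on the middle arrays at 37.2 and 63.0. However, GDF9 stood at 137.3 and 150.6 and KIT, which other cells also carry, at 891.6 and 1887. Aromatase makes oestrogen in granulosa cells of large follicles. Its gene CYP19A3 stood at 8971 and 10896, but its paralog CYP19A1 at 18.0 and 52.2, too dim to be tested. Probe sets of such close copies may share signal, and which copy was measured was not tested. Granulosa markers went both ways: of 12 tested, 4 (33.3%) were higher and 5 (41.7%) lower on the middle arrays. AMH rose from 198.6 and 273.0 to 969.5 and 1763.9, and INHA fell from 11118 and 16319 to 2219 and 3823. Most markers of immune cells were bright on the arrays labelled primordial: over 21 genes the signals summed to 111600 and 108290, against 4989 and 4071 on the middle arrays. The brightest were SPP1 at 20412 and 21174 and CCL4 at 16279 and 16949. All 17 tested members fell. Of all tested genes, 22.9% were higher and 22.5% lower. PTPRC, the general leukocyte marker, was dim on all 4 arrays at 47.5 and 49.9 and at 33.8 and 21.0. Of 10 tested oocyte markers 9 rose and KIT fell. Stromal fibroblast markers summed to 27101 and 31356 on the arrays labelled primordial and 62236 and 45295 on the middle arrays. Most of the sums on the arrays labelled primordial was VIM, at 24834 and 28794 against 28003 and 24239 and not called. Of the 10 tested members 6 rose and 0 fell, as DCN from 260.0 and 322.1 to 15364 and 9867. The log2 difference between the 3′ and 5′ actin probe sets, a sign of RNA length, was 3.56 and 3.21 in the pair labelled primordial and 4.98 and 4.21 in the middle pair. For EF1A it was 1.02 and 0.67 against 1.34 and 0.87, and for GAPDH 3.43 and 2.69 against 3.29 and 2.79. The part of cell makeup and of RNA length in the results below was not tested, and fewer cells of a type and less RNA per cell cannot be told apart in these bulk samples.

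Differences are given as middle minus primordial in log2(signal + 16), with the standard error of limma's fit, so that a value of 1 is close to a 2-fold change and folds of dim genes are understated. By limma with Benjamini-Hochberg adjustment over 14399 probe sets and a threshold of 0.05, 6821 probe sets (47.4%) passed: 4275 (29.7%) had more signal in the middle follicles and 2546 (17.7%) less. At 1 probe set per gene, 2469 genes (45.5%) were called, of which 1245 (22.9%) were higher and 1224 (22.5%) lower. The differences were above 1 for 749 of the higher genes and below -1 for 728 of the lower ones, and beyond 3 for 65 and 111. The median difference was 0.06 over genes and 0.22 over probe sets. The balance depended on the scaling: 50.4% of the called genes were higher as deposited, 33.9% after centring every array at its median and 45.7% after quantile normalization. Genes higher and lower were 847 and 1653 with centred and 1104 and 1314 with quantile-normalized arrays, and a list's counts under each scaling are to be read against these. P1 and P2 stand here for the arrays labelled primordial, M1 and M2 for the middle and L1 and L2 for the last arrays. Genes called numbered 1781 without P1, 1691 without P2, 1614 without M1 and 1967 without M2. The arrays of the stages did not overlap for 4136 genes (76.1%).

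The 12 genes with the largest rise, outside the marker lists and a set of genes described before, included channels, secreted and surface proteins and nuclear factors. KCNN3, a calcium-activated channel, had signals of 18.2 and 26.4 on the arrays labelled primordial and 825.7 and 790.4 on the middle arrays, a difference of 4.44 ± 0.32 (adjusted p = 1.6e-05). KCNJ5, an inward rectifier gated by G proteins, had 8.2 and 5.5 against 354.1 and 366.3 and a difference of 4.04 ± 0.36. The pairs of both genes lay apart, which the choice of genes required.

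ESRP1, an epithelial splicing regulator, was at 25.2 and 37.2 against 1379 and 1119, a difference of 4.75 ± 0.36 (adjusted p = 2.08e-05). FKBP6, a co-chaperone known from germ cells, was at 7.8 and 1.3 against 704.4 and 424.3, a rise of 4.79 ± 0.46. The transcription factor STOX1 (2.1 and 2.7 against 371.6 and 292.7; 4.23 ± 0.41) and the nuclear protein TRNP1 (3.4 and 4.7 against 356.0 and 348.1; 4.20 ± 0.38) were at the floor on both arrays labelled primordial. C14H10orf35, an open reading frame with no function given in the files, went from 44.4 and 35.8 to 916.5 and 945.8 (difference 4.08 ± 0.28).

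Among secreted and surface proteins, the chemokine CXCL12 was at 9 and 29.2 against 878.1 and 468.3, a difference of 4.29 ± 0.44, and SFRP1, a secreted antagonist of Wnt ligands, at 46.2 and 61.1 against 1579 and 982.9, a difference of 4.19 ± 0.27 (adjusted p = 1.02e-05). The complement protease C1S rose by 4.28 ± 0.49 from 129.5 and 190.0 to 3869 and 2878. The aminopeptidase ENPEP, which trims angiotensin II, rose by 4.02 ± 0.34 from 26.9 and 56.9 to 919.5 and 865.8, and the serine protease TMPRSS15 by 4.27 ± 0.52 from 33.1 and 2 to 743.9 and 415.9. For each of the 12 genes both middle arrays were far above both arrays labelled primordial, but the choice of genes required this. All 24 genes with the largest differences were picked as called, without overlap and by size. Their adjusted p-values by limma, from 2.3e-06 to 0.000393, are therefore no separate support. Some passed the filter on dim probe sets only through the middle arrays, as FKBP6, at 20.8 and 10.1 on the last arrays.

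The 12 genes with the largest fall, outside the marker lists and the genes described before, included several known from macrophages and other leukocytes, and the immune marker sums given above moved with them. IL1A, an inflammatory cytokine, was at 1703 and 1665 against 20.2 and 21.3 (difference -5.53 ± 0.26; adjusted p = 2.3e-06). PLEK, a protein kinase C substrate of blood cells, was at 2672 and 2359 against 38.3 and 50.0 (-5.40 ± 0.32). The lysosomal thiol reductase IFI30 was at 7310.3 and 6158 against 149.4 and 213.8 (-5.11 ± 0.41). In each case the middle pair was dim and the other pair bright, and the choice of genes required that they not overlap.

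GPNMB, a glycoprotein of phagocytes, went from 8191 and 6622 to 243.6 and 143.0 (-5.18 ± 0.30). ACP5, tartrate-resistant acid phosphatase, went from 3965 and 3849 to 164.5 and 129.3 (-4.60 ± 0.22). LCP1, the actin bundler of leukocytes, went from 2885 and 2314 to 102.3 and 86.9 (-4.56 ± 0.45). The chemokine CCL2 fell from 9082 and 6797 to 250.7 and 358.3 (-4.64 ± 0.26). The cytokine IL10 fell from 1251 and 1183 to 32.5 and 27.1 (-4.75 ± 0.37). The adhesion molecule ICAM1 fell from 3625 and 3690.2 to 169.7 and 111.8 (-4.58 ± 0.23). CD83, a marker of mature dendritic cells, fell from 6022 and 5998 to 171.1 and 337.1 (-4.55 ± 0.28). GPRC5A, an orphan receptor induced by retinoic acid, was at 859.4 and 1483 against 20.5 and 25.4 (-4.88 ± 0.66), with unequal values on the arrays labelled primordial. AMBN, whose symbol names an enamel matrix protein, was at 2700.0 and 3093 against 39.7 and 78.4 (-5.32 ± 0.43).

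**Figure D1:**
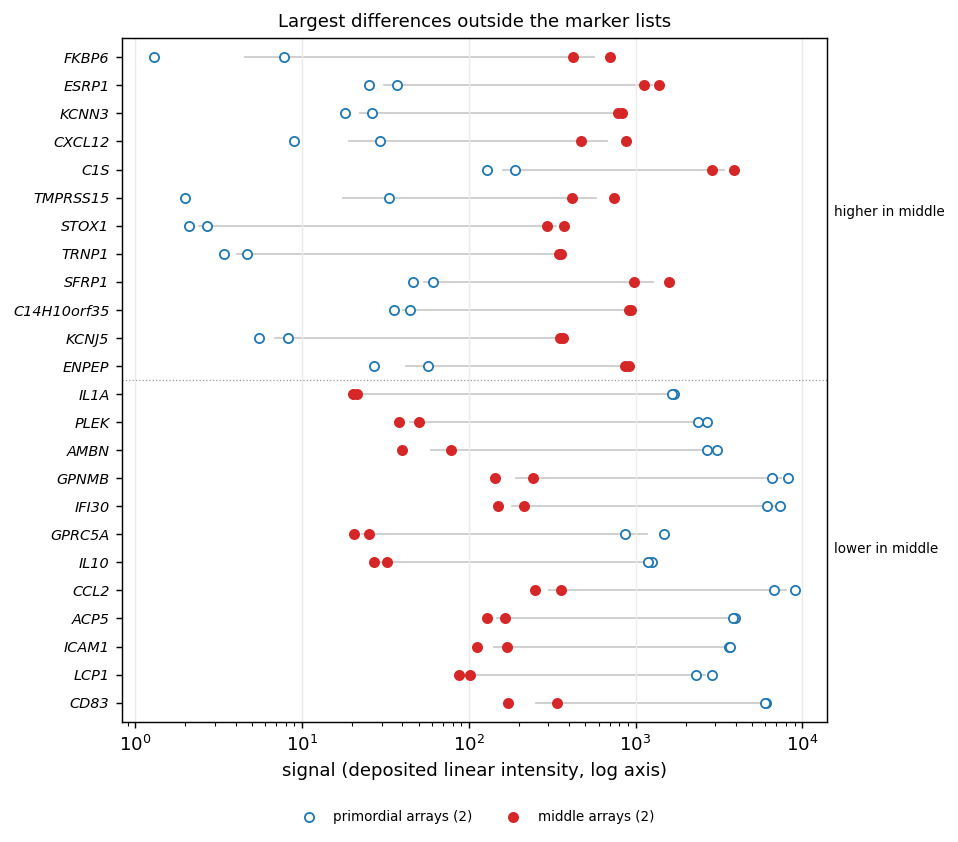
Deposited signal on a log axis for the 12 genes with the largest rise and the 12 with the largest fall, outside the marker lists and the genes described before. Open circles are the 2 arrays labelled primordial, filled circles the 2 middle arrays, and the grey line joins the stage means. In each row the pairs lie apart, which the choice of genes required, as for FKBP6 at 7.8 and 1.3 against 704.4 and 424.3.

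Function lists were then read, 36 in all, in the classes transport, receptors and signalling, metabolism and RNA handling. Of 320 transport genes tested, 16.6% were higher and 24.7% lower; of 211 receptor and signalling genes, 22.3% and 27%; of 348 metabolic genes, 18.1% and 29.6%; and of 528 RNA handling genes, 22% and 16.7%, beside 22.9% and 22.5% of all genes. The medians were -0.04, 0.03, -0.17 and 0.09 in the same order, beside 0.06 over all genes. Members that did not pass the filter on dim probe sets are counted in none of these shares.

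**Figure D2:**
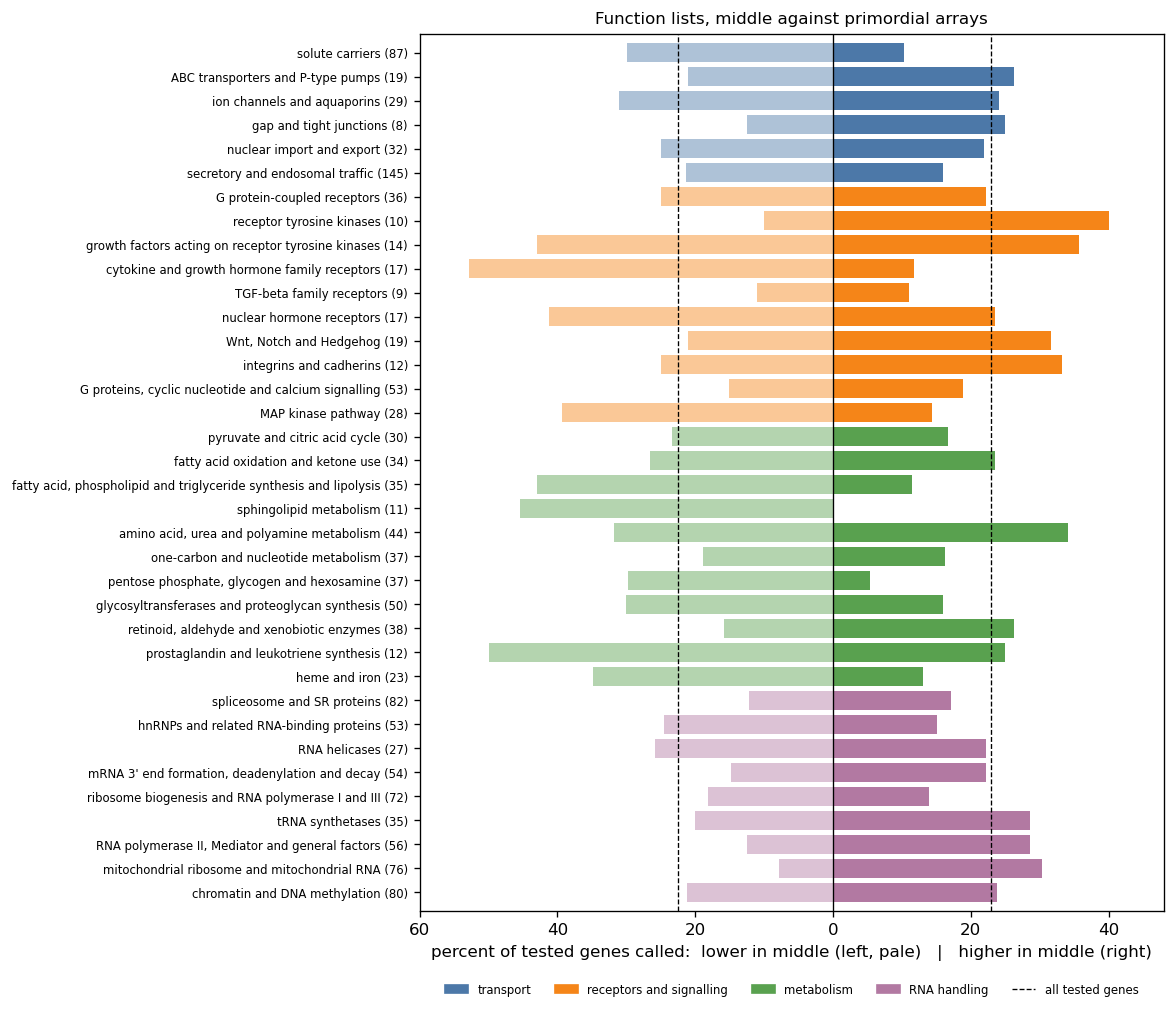
Percent of tested genes called higher (right, full colour) and lower (left, pale) in middle follicles for the 36 function lists, with the number tested in brackets. Dashed lines mark the shares over all 5432 genes, 22.9% higher and 22.5% lower; cytokine receptors reach 52.9% lower and the list of the mitochondrial ribosome only 7.89% lower.

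Solute carriers move sugars, amino acids, metals and nucleotides across membranes. Of 87 tested, 26 (29.9%) were lower and 9 (10.3%) higher, with a median of -0.14, beside 22.5% lower and 22.9% higher of all genes. The difference in share was not tested. The counts were 33 and 6 with centred arrays and 32 and 8 after quantile normalization. Of the carriers, lower ones numbered 16 without M1 and 17 without P1 or P2. The list takes in a few associated proteins such as SLC9A3R1. SLC2A3, the high-affinity glucose carrier, had signals of 5953 and 6294 on the arrays labelled primordial and 761.7 and 798.6 on the middle arrays, a difference of -2.95 ± 0.16 (adjusted p = 4.98e-06). The fructose carrier SLC2A5 was at 437.6 and 413.4 against 53.5 and 41.4 (-2.80 ± 0.46). The lactate exporter SLC16A3 was at 366.4 and 958.8 against 67 and 102.7 (-2.62 ± 0.45). SLC7A1, a carrier of arginine and lysine, was at 2572 and 3395 against 393.7 and 451.0 (-2.76 ± 0.25). All 4 were several-fold dimmer on both middle arrays.

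Metal carriers split. The phagosomal metal exporter SLC11A1 fell from 866.9 and 632.5 to 73.5 and 55.4 (-3.24 ± 0.40). The magnesium carrier SLC41A1 fell from 1459 and 2409 to 431.8 and 564.3 (-1.89 ± 0.26). Of the copper carriers, SLC31A1, which brings copper into the cell, fell from 1583 and 1241 to 599.9 and 570.1 (-1.24 ± 0.20), whereas its relative SLC31A2 rose from 234.3 and 146.9 to 1021 and 1069 (2.39 ± 0.26; adjusted p = 0.000121). SLC25A37, which carries iron into mitochondria, rose from 300.3 and 257.5 to 669.7 and 656.0 (1.21 ± 0.21). SLC3A1, the heavy subunit of the cystine transporter, was at 1.6 and 23.8 against 196.2 and 162.3 (2.88 ± 0.48). SLC46A2, a relative of the folate carrier, was at 353.5 and 332.0 against 968.2 and 1139.8 (1.57 ± 0.25).

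ATP-driven pumps gave 5 higher and 4 lower of 19, a split that turned to 3 and 7 with centred arrays and to 5 and 8 after quantile normalization. Of the pumps, higher ones numbered 1 without M1 and 3 without P1 or P2. The drug exporter ABCB1 rose from 110.9 and 133.8 to 387.2 and 401.2 (1.57 ± 0.24). ATP2A2, the calcium pump of the endoplasmic reticulum, fell from 4024 and 4285 to 1556 and 1813 (-1.30 ± 0.20). The sodium pump subunit ATP1B3 fell from 5677 and 5079 to 1863 and 2237 (-1.39 ± 0.17).

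Ion channels and aquaporins gave 7 higher and 9 lower of 29, with a median of 0.01; after quantile normalization 7 were lower. Besides KCNN3 and KCNJ5, the calcium channel subunit CACNB4 rose from 116.9 and 83.8 to 710.4 and 665.2 (2.61 ± 0.25). The potassium channel partner KCNIP4 rose from 25.5 and 28.9 to 333.0 and 213.8 (2.71 ± 0.50). GABRA4, a subunit of the GABA-gated chloride channel, fell from 454.5 and 606.7 to 24.7 and 25 (-3.73 ± 0.28). AQP3, a channel for water and glycerol, fell from 653.8 and 630.3 to 84.3 and 94.4 (-2.64 ± 0.27). Store-operated calcium entry was divided: the pore protein ORAI1 fell (-1.46 ± 0.31) and the sensor STIM2 rose (0.97 ± 0.22).

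Gap junctions are the route by which granulosa cells feed the oocyte, but these bulk samples do not show which cells carry a connexin. Of the connexins named here, GJA5 was called and GJA1 was not. GJA5, connexin 40, was at 149.2 and 156.2 on the arrays labelled primordial and 1074 and 1405 on the middle arrays, a rise of 2.88 ± 0.22 (adjusted p = 2.04e-05). GJA1, connexin 43 and the main connexin between granulosa cells, was bright on all 4 arrays at 18979.7 and 22222 against 19614 and 18358 and was not called (-0.11 ± 0.13; adjusted p = 0.493). In all, 2 of 8 tested junction genes rose and 1 fell, or 2 with centred arrays. Of these junction genes, higher ones numbered 1 without P1 or M2 or with the dimmest 60% of probe sets dropped and 5 with no filter, and lower ones numbered 0 without M2.

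Of 32 genes of transport through the nuclear pore, 7 were higher and 8 lower, which turned to 10 and 8 after quantile normalization. Of the pore genes, lower ones numbered 3 without P2 and 5 without M1. The nucleoporins NUP37 (355.0 and 430.6 against 1167 and 1014; 1.44 ± 0.23), NUP155 (637.3 and 818.5 against 1526 and 1639.9; 1.11 ± 0.23), NUP133 (1.09 ± 0.21), NUP85 (1.09 ± 0.21) and NUP54 (1.04 ± 0.23) rose, while NUP50 and NUP210 fell. NXF1, the main export receptor of messenger RNA, fell from 4718 and 4207 to 1140.1 and 1088 (-1.98 ± 0.18; adjusted p = 4.78e-05). Its cofactor NXT1 fell from 1702 and 1391 to 545.5 and 826.5 (-1.18 ± 0.25), as did RANGAP1, which drives the RAN cycle (-1.26 ± 0.28). KPNA7, a nuclear import receptor known from oocytes and a member of the oocyte list, rose from 41.4 and 6.8 to 2130.1 and 2332 (5.96 ± 0.40).

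Vesicle traffic genes gave 23 higher and 31 lower of 145, shares of 15.9% and 21.4%; 47 were lower with centred arrays. Of the traffic genes, higher ones numbered 13 without M1, and lower ones numbered 16 without P1 and 19 without M1. The fusion protein VAMP7 rose from 233.6 and 220.7 to 934.2 and 851.4 (1.90 ± 0.21), and the Golgi matrix protein GOLGA2 (1.72 ± 0.28), the AP3B1 subunit of the lysosomal sorting adaptor (1.44 ± 0.22) and the endosomal VPS45 (1.08 ± 0.20) rose with it. STX11, a syntaxin of immune cells, fell from 3204 and 4113 to 404.5 and 384.0 (-3.15 ± 0.23). RAB27B, a GTPase of regulated secretion, fell from 407.5 and 310.7 to 49.5 and 40.5 (-2.61 ± 0.29). ARF6, a GTPase of the plasma membrane, fell from 5511 and 5207 to 934.1 and 1065 (-2.41 ± 0.17). SNX10 fell (-2.87 ± 0.40), and so did SEC23B and SEC24D, coat subunits of exit from the endoplasmic reticulum (-1.40 ± 0.20 and -1.14 ± 0.24).

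Of the G protein-coupled receptors, 8 of 36 tested rose and 9 fell, with a median of 0.08, out of 78 on the array. Of these receptors, higher ones numbered 4 with the dimmest 60% of probe sets dropped, where members below that filter are no longer tested. AGTR1, the angiotensin II receptor, was at 131.5 and 132.5 on the arrays labelled primordial and 872.4 and 533.0 on the middle arrays, a rise of 2.24 ± 0.27 (adjusted p = 0.000199). The sphingosine 1-phosphate receptor S1PR1 rose from 2892 and 2222 to 8726 and 7675 (1.68 ± 0.18). The adenosine receptor ADORA1 rose from 64.8 and 62 to 281.6 and 268.9 (1.87 ± 0.32). The neuropeptide Y receptor NPY1R rose from 222.9 and 328.6 to 685.3 and 647.2 (1.25 ± 0.23). The calcitonin receptor CALCR was at 51.3 and 30.3 against 320.0 and 153.4 (2.10 ± 0.46); without the first middle array its difference was 1.60 and no longer called (adjusted p = 0.0643 by limma). The orphan receptor GPR160 was at the floor at 15.2 and 0.8 and reached 755.5 and 486.7 (4.77 ± 0.48).

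Lower receptors of this class included the chemokine receptors CCR1 (867.7 and 511.4 against 39.6 and 25.1; -3.84 ± 0.54) and CXCR4 (3121 and 3423 against 1233 and 824.3; -1.68 ± 0.26), both found on leukocytes. The Wnt receptor FZD5 was lower too, at 6172 and 6747 against 1428 and 1105 (-2.35 ± 0.20; adjusted p = 3.28e-05), as was FZD4 (-1.86 ± 0.22), while FZD2 rose from 88.5 and 122.2 to 305.1 and 333.7 (1.48 ± 0.25). The frizzled receptors were therefore called in both directions.

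In the Wnt, Notch and Hedgehog list 6 of 19 rose and 4 fell, or 2 after quantile normalization. In that list, higher ones numbered 3 with the dimmest 60% of probe sets dropped, and lower ones numbered 2 without P1, P2 or M1. Beside SFRP1, LEF1, which carries out Wnt signals in the nucleus, rose from 33.1 and 41.9 to 174.9 and 133.4 (1.66 ± 0.34). GLI1, a target and effector of Hedgehog signalling, rose from 8.1 and 33.6 to 164.2 and 154.8 (2.34 ± 0.45; adjusted p = 0.00252). GLI1 also belongs to the theca marker list, of which 4 of 8 tested genes rose and 1 fell.

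Of 14 tested ligands of receptor tyrosine kinases 5 rose and 6 fell, and of 10 receptors 4 rose and 1 fell, or 2 and 2 with centred arrays. Of the ligands, higher ones numbered 3 without M2. Of the kinase receptors, higher ones numbered 2 without P2, M1 or M2, and lower ones numbered 2 without M2. PTN, a heparin-binding growth factor, was at 51.8 and 39.6 against 2729.7 and 1410.5 (5.01 ± 0.32). FGF13, a fibroblast growth factor that stays in the cell, was at 150.0 and 110.6 against 2253 and 1245 (3.54 ± 0.29), both far higher on the middle arrays. Of the epidermal growth factor family, 2 ligands fell, AREG from 972.2 and 1339.6 to 4 and 2.4 (-5.91 ± 0.36). HBEGF fell from 238.9 and 266.9 to 82.5 and 31.3 (-1.98 ± 0.43). Their receptor EGFR was not called at its brightest probe set, at 1767 and 1523 against 1996 and 2029.9 (0.29 ± 0.18). However, 1 of the 2 tested probe sets of EGFR was called higher. MDK, the relative of PTN, fell from 2665 and 3104 to 784.3 and 831.8 (-1.81 ± 0.17). ANGPT1, a ligand of endothelial cells, fell from 259.4 and 223.9 to 93.3 and 79 (-1.33 ± 0.27). IGF1, a growth factor of granulosa cells, rose from 513.0 and 511.5 to 1016 and 837.2 (0.83 ± 0.20), a call lost without the first middle array (adjusted p = 0.0628 by limma). The receptor KIT, carried by oocytes and some blood and theca cells, fell from 891.6 and 1887 to 170.0 and 254.9 (-2.55 ± 0.34), and TYRO3 rose by 1.18 ± 0.26.

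Cytokine receptors were lower more often than higher: 9 of 17 tested (52.9%) were lower and 2 higher, with a median of -0.80. Over all genes 22.5% were lower and 22.9% higher, and the difference in share was not tested. In the list 11 were lower with centred and 10 with quantile-normalized arrays, where 4 were higher. Of the cytokine receptors, higher ones numbered 1 with the dimmest 60% of probe sets dropped. TNFRSF1B, a receptor of tumour necrosis factor, was at 5747 and 5740.3 against 474.7 and 598.6 (-3.39 ± 0.22; adjusted p = 1.14e-05). The interleukin 4 receptor IL4R was at 2040.2 and 1697 against 220.4 and 226.5 (-2.97 ± 0.21). IL2RG, the shared chain of lymphocyte interleukin receptors, was at 649.7 and 750.1 against 117.1 and 73.3 (-2.71 ± 0.38). IFNAR2 and IL10RB fell too (-1.15 ± 0.23 and -1.39 ± 0.31). Exceptions were the erythropoietin receptor EPOR, which rose from 59.1 and 31.1 to 279.1 and 334.2 (2.43 ± 0.34), and IL11RA, which rose from 233.1 and 226.1 to 509.4 and 566.6 (1.17 ± 0.24). The immune marker sums fell together with the lower members, and their part was not tested.

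Receptors of the transforming growth factor beta family, which carry the signals of GDF9, BMP15 and activin in the follicle, were mostly not called: 1 of 9 rose and 1 fell, or 4 fell with centred and 3 with quantile-normalized arrays. Of the family, higher ones numbered 2 without P1, and lower ones numbered 0 without P2, M1 or M2 and 2 without L1 or L2 or with a pseudocount of 64 or with the dimmest 60% of probe sets dropped or with the last arrays left out of the fit. The riser was AMHR2, the receptor of anti-Müllerian hormone, at 262.4 and 321.0 against 656.3 and 784.8 (1.26 ± 0.26). TGFBR1 (-0.42 ± 0.17) and BMPR1A (0.42 ± 0.21) did not pass the test.

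Nuclear receptors gave 4 higher (23.5%) and 7 lower (41.2%) of 17, with a median of -0.21. The shares over all genes were 22.9% and 22.5%, and the difference was not tested. The orphan receptor NR0B1, a repressor of steroid synthesis, rose from the floor at 8.3 and 3.8 to 227.2 and 253.5 (3.54 ± 0.39). NR2F1 rose from 280.4 and 269.6 to 947.5 and 823.7 (1.63 ± 0.22). The thyroid hormone receptor THRA rose from 445.5 and 540.5 to 1319.7 and 1339 (1.41 ± 0.29). NR2F2 was at 290.0 and 584.2 against 2254 and 1209.6 (1.96 ± 0.38), but the mean of its probe sets gave 0.67 and no call (adjusted p = 0.154 by limma). NR5A2, which drives steroid genes in granulosa cells, fell from 3458 and 4891 to 185.4 and 136.7 (-4.56 ± 0.24; adjusted p = 4.22e-06). The early response receptors NR4A3 (1082 and 1397 against 41.4 and 67.8; -4.17 ± 0.27) and NR4A2 (-2.19 ± 0.28) and the clock-linked RORA (311.4 and 272.7 against 58.5 and 71.9; -1.93 ± 0.31) fell too. The immediate-early and stress markers, of which 16 of 17 tested fell and 0 rose, moved with them. PGR, the progesterone receptor, was at 139.3 and 385.2 against 110.0 and 117.3 and was not called.

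Adhesion receptors gave 4 higher and 3 lower of 12, which turned to 3 and 4 with centred arrays. CDH11, a cadherin of mesenchymal cells, rose from 51.8 and 27.5 to 2516 and 1541 (5.19 ± 0.29) and ITGB5 by 1.04 ± 0.20, whereas the leukocyte integrin ITGB2 fell from 1244 and 1247 to 45.7 and 49.6 (-4.31 ± 0.33). The fibronectin receptor ITGA5 fell from 522.9 and 521.8 to 57.7 and 57.8 (-2.87 ± 0.25). ITGB1, the partner shared by many integrins, stood at 8432 and 8777 against 7201 and 6212 and was not called.

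Downstream of the receptors, the G protein and cyclic nucleotide list gave 10 higher and 8 lower of 53, which turned to 5 and 18 with centred arrays and to 6 and 14 after quantile normalization. Of the G protein list, higher ones numbered 4 without P2 or M1 and 6 without M2 or with the dimmest 60% of probe sets dropped, and lower ones numbered 5 without M1. PDE4B, a phosphodiesterase that degrades cyclic AMP, fell from 424.2 and 944.6 to 77.5 and 21.5 (-3.46 ± 0.52). RGS4, which shortens G protein signals, fell from 4383 and 6126 to 648.1 and 868.8 (-2.76 ± 0.28). RGS1, its relative of lymphocytes, fell from 934.3 and 955.1 to 154.6 and 169.6 (-2.43 ± 0.27). PRKACA, a catalytic subunit of protein kinase A, rose from 232.1 and 274.9 to 512.6 and 598.0 (1.08 ± 0.22). The G protein subunit GNG11 rose from 2623 and 3153 to 8204 and 7389 (1.43 ± 0.18). In the MAP kinase list 11 of 28 (39.3%) fell and 4 (14.3%) rose, or 11 and 1 under either other scaling. Over all genes 22.5% fell and 22.9% rose, and the difference in share was not tested. Of the kinase list, higher ones numbered 1 without P1, P2, M1 or M2 or with the dimmest 60% of probe sets dropped and 2 with no filter. DUSP6, the phosphatase induced by and acting on ERK, fell from 3002 and 3367 to 328.0 and 397.0 (-3.08 ± 0.29; adjusted p = 5.53e-05). The adaptor GRB2 fell from 2414 and 2341 to 543.5 and 549.9 (-2.09 ± 0.22).

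**Figure D3:**
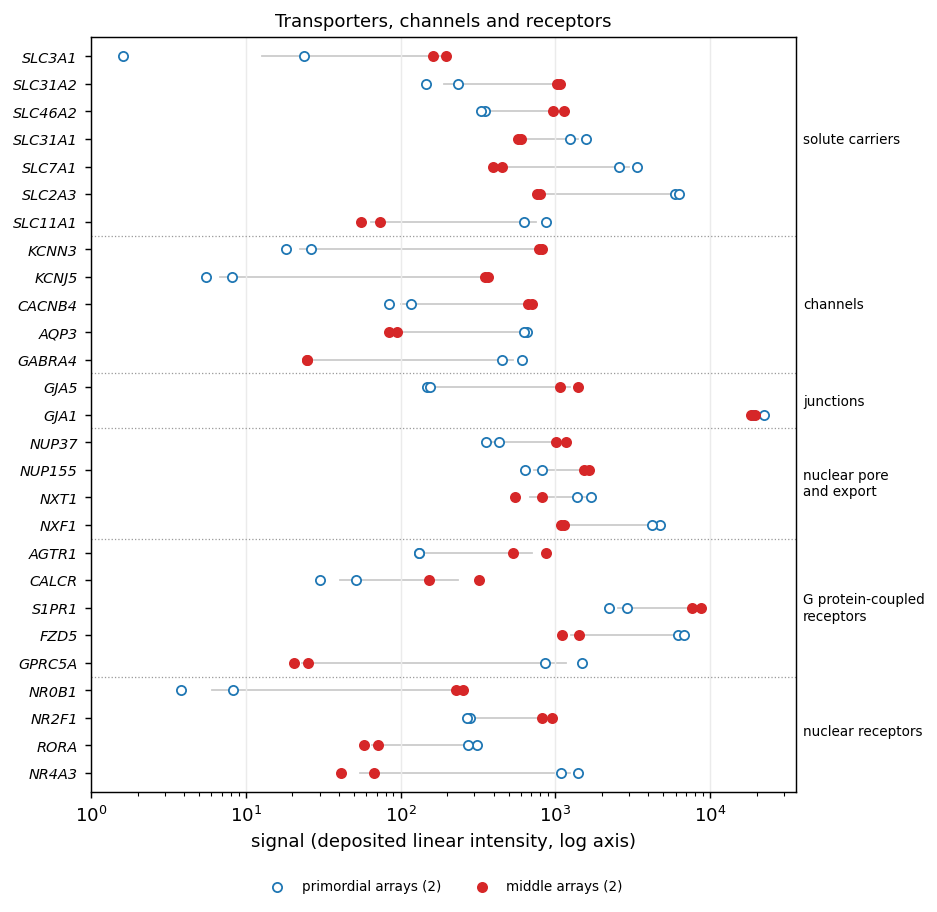
Deposited signal on a log axis of transport and receptor genes in 6 groups; open circles are the 2 arrays labelled primordial, filled circles the 2 middle arrays, and grey lines join the stage means. SLC31A1 and SLC31A2 lie in opposite order, GJA5 is higher in the middle arrays, and GJA1 lies at 18980 and 22222 against 19614 and 18358.

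Amino acid genes had 15 higher and 14 lower of 44 (34.1% and 31.8%), beside 22.9% and 22.5% of all genes, a difference not tested. Their counts turned to 11 and 17 with centred and 12 and 16 with quantile-normalized arrays. Of the amino acid genes, higher ones numbered 8 without P1 and 9 without M1, and lower ones numbered 9 without M1. Serine synthesis contributed PSAT1, the aminotransferase of the pathway, at 1832 and 1238 on the arrays labelled primordial and 11711 and 11545 on the middle arrays, a rise of 2.94 ± 0.23 (adjusted p = 2.55e-05). PSPH, which removes the phosphate in the last step, rose from 420.2 and 284.6 to 1279.8 and 1348 (1.88 ± 0.36). PHGDH, the first enzyme, was dim at 174.1 and 294.9 against 213.1 and 127.2 and was not called (-0.42 ± 0.41).

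Genes of branched-chain amino acid breakdown, chosen after their values were seen, were called in both directions or not at all. MCCC2, of leucine breakdown, rose from 148.0 and 234.3 to 847.9 and 593.2 (1.84 ± 0.29). HIBCH, of valine breakdown, rose from 144.5 and 192.2 to 496.4 and 519.1 (1.52 ± 0.23). DBT, the core of the branched-chain dehydrogenase complex, rose from 349.3 and 266.9 to 814.2 and 648.6 (1.21 ± 0.23). BCKDHA, another subunit of that complex, was not called (0.52 ± 0.29), and BCAT1, the cytosolic transaminase of the first step, fell from 217.2 and 207.9 to 51.2 and 61.1 (-1.67 ± 0.33).

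Other genes of the amino acid list, of which ODC1, SAT1 and SMS were chosen after their values were seen, follow by pathway. ARG1, arginase of the urea cycle and of macrophages, fell from 3990.5 and 4229.5 to 35.1 and 37.1 (-6.31 ± 0.21; adjusted p = 4.07e-07). ODC1, which makes putrescine, fell from 8157 and 10583 to 1382 and 2611 (-2.28 ± 0.27). SAT1, which acetylates polyamines for export, fell from 22549 and 20039.6 to 9017 and 7770.5 (-1.34 ± 0.15). SMS, spermine synthase, was higher at 359.8 and 470.2 against 822.4 and 863.1 (1.01 ± 0.23), a call lost without the first array labelled primordial (adjusted p = 0.0577 by limma). Creatine kinase CKB (1114 and 1382 against 144.2 and 134.0; -3.02 ± 0.22), glutamine synthetase GLUL (-1.42 ± 0.22) and KMO, of the tryptophan to kynurenine route (-2.34 ± 0.45), were lower.

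Lipid storage and synthesis genes fell more often than they rose: 15 of 35 (42.9%) were lower and 4 higher, with a median of -0.46. Over all genes 22.5% were lower and 22.9% higher, and the difference in share was not tested. The counts were 18 and 3 with centred and 16 and 4 with quantile-normalized arrays. Of the lipid genes, lower ones numbered 8 without M1. PLIN2, the coat protein of lipid droplets, was at 7522 and 7041 against 839.3 and 881.7 (-3.06 ± 0.17; adjusted p = 5.49e-06). PNPLA2, the droplet lipase, was at 1653 and 1647 against 429.9 and 308.4 (-2.13 ± 0.22). LIPA, the lysosomal lipase, was at 6980.4 and 4594 against 1214 and 1258 (-2.18 ± 0.23). The fatty acid binding proteins FABP5 (10438 and 8809 against 444.8 and 373.5; -4.50 ± 0.26) and FABP4 (2496 and 3366 against 3.5 and 4.8; -7.18 ± 0.37), both known from macrophages, fell furthest in the list. ELOVL6, which lengthens palmitate, rose from 368.4 and 645.4 to 3038 and 2038 (2.31 ± 0.30). PNPLA4, a lipase with retinyl ester activity, rose from 56.4 and 76.3 to 2051 and 1848 (4.59 ± 0.36).

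Oxidation of fatty acids had 8 higher and 9 lower of 34, with 14 lower under centring. ACSL4, which activates arachidonate, fell from 6036 and 5649 to 642.4 and 890.0 (-2.92 ± 0.20), and the mitochondrial dehydrogenases ACADVL (1359 and 1468 against 610.0 and 813.7; -0.99 ± 0.22) and ACADM (4258 and 4295 against 2430.3 and 2283; -0.86 ± 0.18) fell as well. DECR1, which handles unsaturated chains, rose from 348.8 and 346.1 to 1032 and 1055 (1.54 ± 0.22), as did the thiolase ACAA2 (1.26 ± 0.23) and ACAD11 (1.30 ± 0.26). The peroxisomal enzymes ACOX2 (251.5 and 138.7 against 666.0 and 597.0; 1.67 ± 0.28) and HSD17B4 (0.92 ± 0.17) rose too. In the citric acid cycle 5 of 30 rose and 7 fell, which became 16 lower and 1 higher with centred and 5 higher and 9 lower with quantile-normalized arrays. Of the cycle genes, higher ones numbered 1 without P2, 2 without M2, 3 without P1 and 8 without L1 or L2 or with the last arrays left out of the fit, and lower ones numbered 2 without P2 or M1 and 4 without P1. SUCLG2 rose (1.07 ± 0.18), and OGDH and FH fell (-1.18 ± 0.22 and -0.80 ± 0.17).

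In the list of the pentose phosphate path, glycogen and hexosamines, 11 of 37 (29.7%) were lower and 2 (5.41%) higher, with a median of -0.26. Over all genes 22.5% were lower and 22.9% higher, and the difference in share was not tested. The list's counts were 15 and 1 with centred and 14 and 2 with quantile-normalized arrays. In these sugar pathways, higher ones numbered 1 without M1, and lower ones numbered 7 without P1. Of the pentose phosphate path, which yields NADPH and ribose, RPIA fell from 5166 and 6895 to 1488 and 1910.2 (-1.81 ± 0.21; adjusted p = 0.000178). TALDO1 fell from 4879 and 4904 to 1475 and 2385 (-1.37 ± 0.24), and PGD and TKT fell as well (-1.33 ± 0.29 and -1.24 ± 0.27). In hexosamine metabolism, GFPT1, the entry enzyme, and AMDHD2, which returns N-acetylglucosamine phosphate, fell (-1.81 ± 0.35 and -2.72 ± 0.30), while OGT, which attaches N-acetylglucosamine to proteins, rose from 1899.8 and 1202 to 4271 and 3565 (1.36 ± 0.24).

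Sugar chain synthesis had 15 lower (30%) and 8 higher (16%) of 50, beside 22.5% and 22.9% of all genes, a difference not tested. Of the chain genes, lower ones numbered 7 without M1 and 8 without P2. HAS3, a hyaluronan synthase, rose from 70.5 and 63.5 to 383.9 and 354.5 (2.21 ± 0.36). MGAT4C, which branches N-linked chains, rose from 92.5 and 85.9 to 622.6 and 430.8 (2.34 ± 0.31). FUT8 and HS2ST1, which add core fucose and sulfate heparan chains, rose by 1.19 ± 0.19 and 1.26 ± 0.25, and the mannosidase MAN1A1 fell (-2.09 ± 0.43). In sphingolipid metabolism 5 of 11 (45.5%) fell, or 8 with centred arrays, and 0 rose. Over all genes 22.5% fell and 22.9% rose, and the difference in share was not tested. In this list the lysosomal genes GM2A (3425 and 3584 against 601.6 and 672.5, -2.43 ± 0.37), GLA (2751 and 2592 against 719.6 and 749.7, -1.84 ± 0.18) and PSAP (-1.32 ± 0.23) were lower.

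Nucleotide and folate genes had 6 higher and 7 lower of 37, or 3 and 11 with centred arrays. Of the nucleotide genes, higher ones numbered 3 without P2 or M2 or with the dimmest 60% of probe sets dropped, and lower ones numbered 4 without P1. RRM2B, a ribonucleotide reductase subunit, rose from 87.2 and 99 to 431.1 and 315.6 (1.82 ± 0.28) and ATIC, of purine synthesis, by 1.01 ± 0.22. The mitochondrial folate enzyme MTHFD2 fell from 1276 and 1151 to 309.5 and 456.7 (-1.65 ± 0.24), and NAMPT, of NAD salvage, and PNP, of purine salvage, fell (-1.61 ± 0.21 and -1.11 ± 0.22).

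Of 12 eicosanoid genes 3 (25%) were higher and 6 (50%) lower, beside 22.9% and 22.5% of all genes, a difference not tested. TBXAS1, thromboxane synthase, rose from 377.9 and 279.1 to 3371 and 3776 (3.39 ± 0.28; adjusted p = 2.82e-05). PTGS2, the inducible cyclooxygenase, fell from 389.4 and 606.0 to 18.1 and 3.5 (-4.28 ± 0.38). PTGES, prostaglandin E synthase, fell from 4583 and 6772 to 997.8 and 1337 (-2.25 ± 0.23). ALOX5AP, of leukotriene synthesis in leukocytes, fell (-1.85 ± 0.31) and the reductase PTGR2 rose by 1.16 ± 0.18.

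Retinoid and xenobiotic enzymes had 10 higher and 6 lower of 38, with 6 and 6 under centring; the list takes in steroid enzymes by their symbols. Of the retinoid list, higher ones numbered 5 without M1 or with the dimmest 60% of probe sets dropped. ALDH1A1, which makes retinoic acid, rose from 25.6 and 21.5 to 561.5 and 279.8 (3.39 ± 0.57). The sterol hydroxylase CYP27A1 rose from 291.7 and 300.0 to 1697 and 2022 (2.58 ± 0.20). FMO1 rose from 28.5 and 23.2 to 396.5 and 224.3 (2.91 ± 0.37) and ALDH1B1 by 1.90 ± 0.23. The lower members included the steroid enzymes CYP19A3 (-2.56 ± 0.18) and CYP11A1, which cleaves the cholesterol side chain, at 4673 and 4311 against 256.2 and 1090.2 (-3.04 ± 0.50), with its middle arrays far apart. Of the heme and iron genes, 8 of 23 (34.8%) fell and 3 (13%) rose, or 1 rose with centred arrays. Over all genes 22.5% fell and 22.9% rose, and the difference in share was not tested. Of the heme list, higher ones numbered 1 without M1 or M2, and lower ones numbered 4 without P2 and 5 without P1 or M1 or with the mean of probe sets. HMOX1, which degrades heme, fell from 5679 and 6807 to 1154 and 1373 (-2.29 ± 0.23) and the ferritin chain FTH1 was lower (-0.85 ± 0.14).

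**Figure D4:**
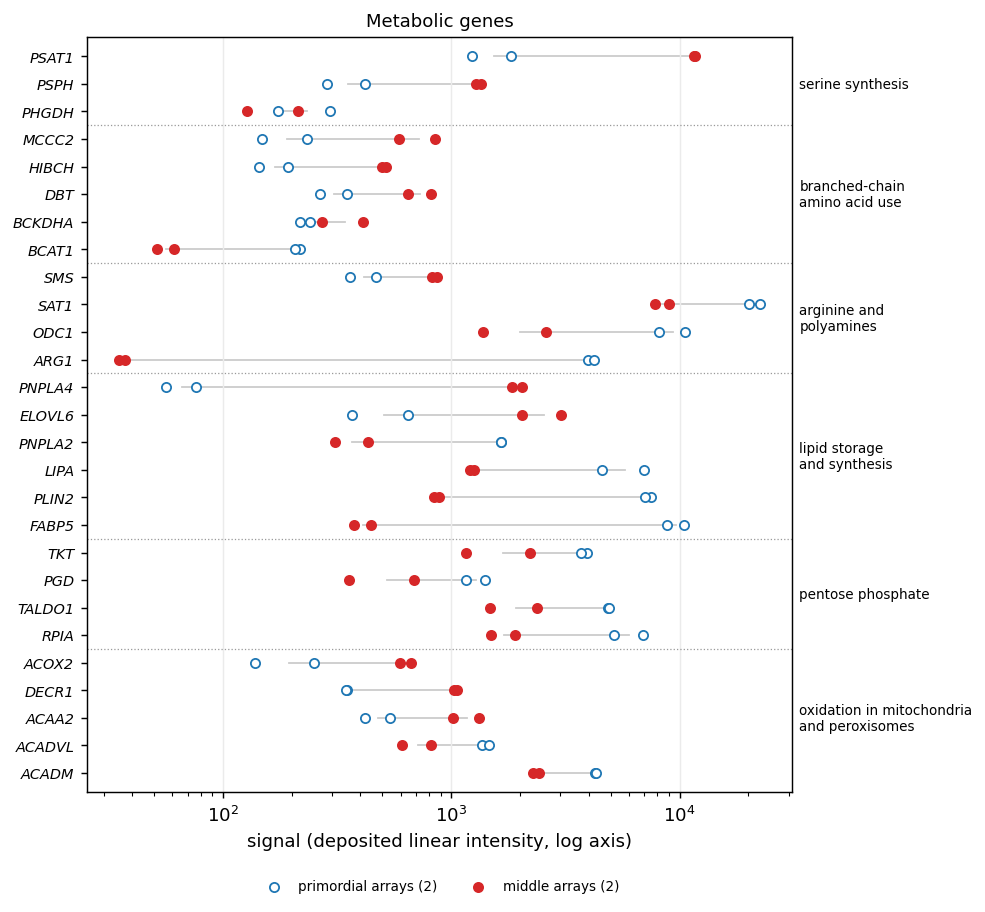
Deposited signal on a log axis of metabolic genes in 6 groups; open circles are the 2 arrays labelled primordial, filled circles the 2 middle arrays, and grey lines join the stage means. PSAT1 lies at 1832 and 1238 against 11711 and 11545, PLIN2 at 7522 and 7041 against 839.3 and 881.7, and PHGDH and BCKDHA were not called.

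RNA handling genes were followed from transcription to decay. Of 56 genes of RNA polymerase II, Mediator and the general factors, 16 (28.6%) rose and 7 (12.5%) fell, with a median of 0.20. Over all genes 22.9% rose and 22.5% fell, and the difference in share was not tested. With centred arrays 12 of the list rose and 13 fell. Of the transcription genes, lower ones numbered 3 without P1 or P2 and 4 without M1. MED7, a Mediator subunit, rose from 424.9 and 486.9 to 1603 and 1659 (1.81 ± 0.19; adjusted p = 0.000104). The polymerase subunit POLR2B rose from 4512 and 4235 to 12946 and 10755 (1.43 ± 0.15), TAF7 by 1.55 ± 0.22, MED6 by 1.34 ± 0.20 and the kinase CDK7 by 1.14 ± 0.23. MED10, of the same complex, fell from 2131 and 1824 to 558.5 and 554.6 (-1.80 ± 0.20), and the initiation factors GTF2F1 and GTF2B fell (-1.57 ± 0.24 and -1.23 ± 0.20).

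Chromatin genes had 19 higher and 17 lower of 80, or 13 and 22 with centred and 14 and 15 with quantile-normalized arrays, where the order turned. Of the chromatin genes, higher ones numbered 11 without P2 and 12 without P1, and lower ones numbered 11 without M1. DNMT1, the maintenance DNA methyltransferase, which is abundant in growing oocytes, was at 1732 and 1723 on the arrays labelled primordial and 9040.0 and 8255 on the middle arrays, a rise of 2.31 ± 0.20 (adjusted p = 4.15e-05), and DNMT3A was not called (0.47 ± 0.26). H1FOO, the oocyte linker histone and a member of the oocyte list, rose by 4.06 ± 0.29, PHF6 from 649.9 and 587.5 to 2472 and 2302 (1.92 ± 0.18) and BAZ2B by 1.73 ± 0.31. HMGA1, an architectural protein of growing cells, fell from 1984 and 1943 to 116.4 and 115.9 (-3.90 ± 0.23; adjusted p = 6.75e-06). The reader of DNA methylation MBD2 fell from 2592 and 2300.5 to 452.6 and 567.0 (-2.23 ± 0.20). The histone methyltransferase EZH2 fell from 978.8 and 1149 to 326.2 and 333.4 (-1.64 ± 0.24). The remodelling ATPases were on opposite sides: SMARCA2 rose from 929.9 and 764.9 to 3341 and 2222 (1.67 ± 0.25) and SMARCA5 fell from 2753 and 2669 to 919.6 and 804.3 (-1.64 ± 0.18).

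Of 82 splicing genes 29.3% were called, 14 higher and 10 lower, beside 45.5% of all genes; the difference in share was not tested. The direction turned to 8 higher and 20 lower with centred arrays and was 15 and 7 after quantile normalization. Of the splicing genes, higher ones numbered 8 without M1 and 9 without P2, and lower ones numbered 3 without P1, 5 without P2 or M2 and 6 without M1. SNW1, a core spliceosome protein, rose from 468.6 and 474.1 to 2148 and 1266 (1.77 ± 0.28), as did CWC27, PLRG1 and PRPF39 (by 1.32 ± 0.22, 1.30 ± 0.21 and 1.13 ± 0.21) and the SR protein kinase CLK4 (1.17 ± 0.23). ALYREF, which couples splicing to export, fell from 1447 and 1559 to 404.4 and 839.5 (-1.34 ± 0.32) beside the export receptor NXF1, and the SR protein SRSF2 and PRPF38B fell (-0.89 ± 0.18 and -1.11 ± 0.22). METTL14, which helps to methylate adenosine in messenger RNA and was chosen after its values were seen, rose from 203.8 and 192.1 to 1029.8 and 871.3 (2.17 ± 0.21).

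RNA-binding proteins had 8 higher and 13 lower of 53, or 4 and 21 under centring and 11 and 10 after quantile normalization, where the direction turned. Of the RNA-binding proteins, higher ones numbered 4 without P1 or M1, and lower ones numbered 5 without P2 and 8 without M1. NANOS1, a translational repressor known from germ cells, rose from 389.0 and 177.6 to 2145 and 1207 (2.54 ± 0.38). YBX3, a cold shock domain protein, fell from 8449 and 7276 to 1833 and 2386 (-1.90 ± 0.19). The splicing repressor PTBP1 fell from 6274 and 6726 to 2053 and 2709 (-1.46 ± 0.18) and HNRNPAB fell (-1.29 ± 0.25), while HNRNPH2 rose by 1.29 ± 0.24. Cold-inducible RNA-binding proteins were on opposite sides, CIRBP rising from 316.1 and 358.1 to 983.2 and 655.5 (1.22 ± 0.24) and RBM3 falling from 3086 and 3314 to 1236 and 1239 (-1.36 ± 0.18). Of 27 helicases 6 rose and 7 fell. Of the helicases, higher ones numbered 3 without M1, and lower ones numbered 3 without P2 and 4 without M1. DHX9 rose from 121.2 and 215.0 to 682.8 and 457.5 (1.69 ± 0.30), and DDX39A, which loads the export complex, fell from 3020.0 and 2895 to 457.4 and 645.5 (-2.41 ± 0.25).

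In the list of 3′ end formation and decay 12 of 54 rose and 8 fell, with a median of 0.10, or 9 and 13 with centred and 11 and 13 with quantile-normalized arrays. The largest risers, RNASE1 (550.7 and 274.3 against 5221 and 6805; 3.88 ± 0.30) and RNASE4 (1.92 ± 0.30), are secreted ribonucleases and not part of messenger RNA decay. DDX6, a helicase of decapping and stored messenger RNA, rose from 776.1 and 899.4 to 2898 and 1912 (1.48 ± 0.26). UPF3B, of nonsense-mediated decay, rose from 355.1 and 338.1 to 997.0 and 827.2 (1.35 ± 0.21), ANGEL2 by 1.52 ± 0.21 and the uridylyltransferase ZCCHC11 by 1.10 ± 0.21. The deadenylase CNOT6L was at 151.4 and 366.5 against 1008 and 657.4 (1.71 ± 0.37), a call lost without the first middle array (adjusted p = 0.0595 by limma).

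Of the adaptors that bring deadenylases to messenger RNA, 4 are named, BTG1 and BTG2 after their values were seen. TOB1 went from 7508 and 7949.9 to 1445 and 1680.2 (-2.30 ± 0.22; adjusted p = 6.1e-05). ZFP36, which binds AU-rich elements, went from 3549.5 and 3174 to 585.1 and 673.5 (-2.39 ± 0.18). BTG2 went from 1958 and 2346 to 626.3 and 941.2 (-1.46 ± 0.22), and BTG1 fell too (-0.80 ± 0.17). ZFP36 and BTG2 also belong to the stress list, which fell as given above. The decapping factor PATL1 fell (-1.18 ± 0.19). PABPC1, the cytoplasmic poly(A)-binding protein, fell from 17208 and 21902 to 9841 and 11811 (-0.85 ± 0.15).

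Of the mitochondrial ribosome and RNA list, 23 of 76 (30.3%) rose and 6 (7.89%) fell, with a median of 0.31. Over all genes 22.9% rose and 22.5% fell, and the difference in share was not tested. The list's counts were 12 and 11 with centred arrays and 17 and 8 after quantile normalization. Of the mitochondrial genes, higher ones numbered 13 without P2 and 14 without P1 or M2, and lower ones numbered 1 without P2 or M1 and 2 without P1. MRPS14, of the small subunit, was at 1058 and 1150.3 against 6514 and 5535 (2.43 ± 0.18; adjusted p = 1.72e-05). MRPS17 was at 899.6 and 835.8 against 2406 and 2929 (1.60 ± 0.23). MRPL13 was at 1446 and 1248 against 3288 and 3170.2 (1.26 ± 0.17). MRPL50, MRPS21, the release factor MRRF and the methyltransferase TFB1M rose by 1.48 ± 0.24, 1.32 ± 0.17, 1.27 ± 0.20 and 1.19 ± 0.23, and FASTKD1, which regulates mitochondrial RNA, by 1.60 ± 0.21.

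Genes of ribosome production had 10 higher and 13 lower of 72, or 4 and 18 with centred arrays. Of the ribosome genes, higher ones numbered 4 without P2 or M1 and 5 without P1 or M2, and lower ones numbered 7 without P2 and 8 without P1 or M1. NOL8 rose from 41.8 and 18.4 to 385.3 and 254.2 (2.88 ± 0.38), while NOP56, a core protein of the complexes that methylate ribosomal RNA, fell from 4116 and 3626 to 1668 and 1947 (-1.09 ± 0.18), and PPAN and the RNA polymerase III subunit POLR3D fell (-1.15 ± 0.22 and -1.19 ± 0.22). Of 35 genes of tRNA charging and modification 10 rose and 7 fell, or 4 and 11 with centred arrays. Of the tRNA genes, higher ones numbered 4 without P1 or P2, 5 without M1 and 6 without M2, and lower ones numbered 4 without M1. DARS, the aspartate synthetase, rose from 184.4 and 158.7 to 670.4 and 531.2 (1.71 ± 0.23), but SARS, AARS and GARS, for serine, alanine and glycine, fell (-1.15 ± 0.22, -1.12 ± 0.23 and -1.09 ± 0.19). The deaminase ADAT1 and the methyltransferase NSUN3 rose by 1.62 ± 0.32 and 1.43 ± 0.26, and AIMP2, a scaffold of the synthetase complex, fell (-1.27 ± 0.22).

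**Figure D5:**
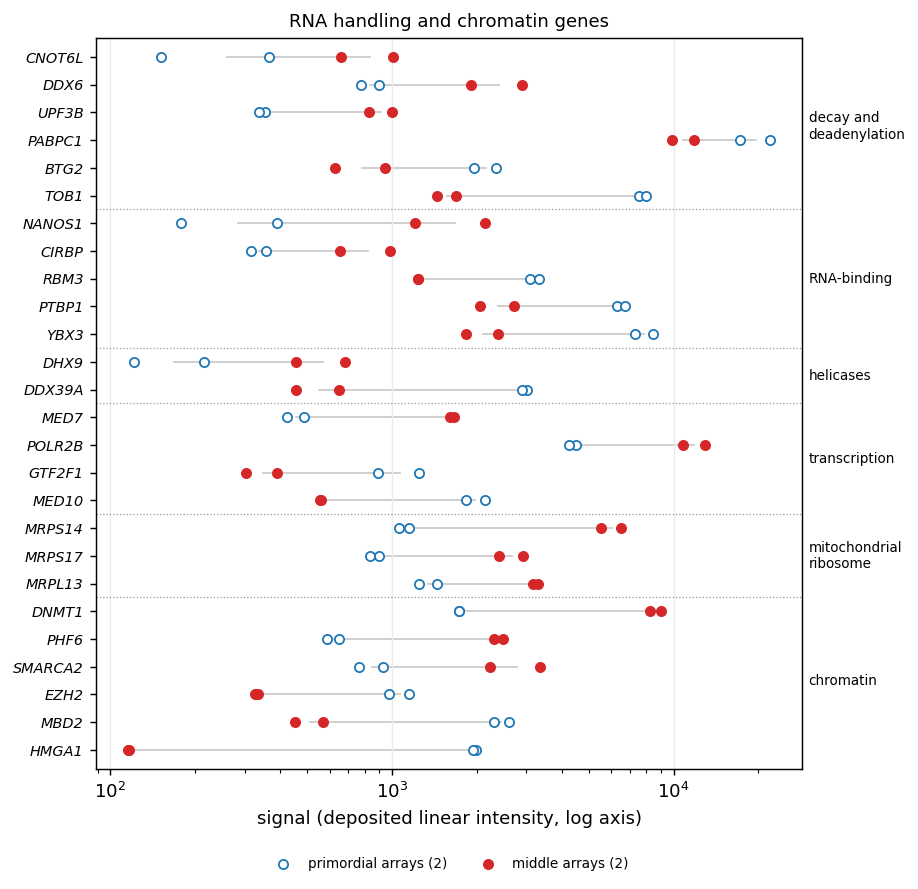
Deposited signal on a log axis of RNA handling and chromatin genes in 6 groups; open circles are the 2 arrays labelled primordial, filled circles the 2 middle arrays, and grey lines join the stage means. DDX6, MED7, MRPS14 and DNMT1 are higher on the middle arrays, and TOB1, PTBP1, MED10 and HMGA1 lower, with DNMT1 at 1732 and 1723 against 9040.0 and 8255.

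The last stage was set against the same middle arrays, so both comparisons share those arrays and are not independent, and its values are given side by side for genes chosen after their values were seen. By limma, ESRP1 was at 43.8 and 100.5 on the last arrays (last minus middle -3.91; adjusted p = 0.000151) and KCNN3 to 36.3 and 38.7 (-3.95; adjusted p = 7e-05). SFRP1 was at 2594 and 3229.8 (1.21, adjusted p = 0.0155 by limma), and CXCL12 and C1S were not called at 327.3 and 669.0 and 1847 and 6763. Of the 12 genes with the largest rise, 9 were called lower on the last than on the middle arrays, 1 higher and 2 not.

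Values of metabolic and RNA genes follow. TBXAS1 was at 303.2 and 177.9 on the last arrays (-3.85; adjusted p = 3.92e-05), PNPLA4 at 54 and 137.3 (-4.24; adjusted p = 9.64e-05), MGAT4C at 42.8 and 33.8 (-3.30; adjusted p = 0.000171) and DNMT1 at 2043 and 1409 (-2.34; adjusted p = 0.000109), each lower than in the middle. For these genes the last arrays lay near or below the arrays labelled primordial. FGF13, by contrast, was at 2991 and 3130.2 on the last arrays and PTN at 1275 and 1695, and neither was called lower there (0.86 and -0.41; adjusted p = 0.0674 and 0.401). Of the 12 genes with the largest fall, 7 were called higher on the last than on the middle arrays, 0 lower and 5 not. Among them, CCL2 stood at 2314 and 3373 (3.15, adjusted p = 7.68e-05 by limma), between the other stages, and GPNMB at 336.4 and 213.7, without a call.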

How the data were processed

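Follicle RNA of 3 stages was hybridised to Affymetrix porcine arrays of 1 colour, after Trizol extraction and biotin labelling of cRNA, per the labels' protocols. GCOS, the array software, was used per the submitters' processing notes; neither version nor settings were given in the sources used here. Values deposited are linear intensity per probe set, which the authors had scaled to 1 trimmed mean, 500.1 on every array without the lowest and highest 2%. No detection call was used here. A description attached to all 6 samples calls them primordial, so the stages rest on the titles.

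The 124 control probe sets were left out, and 1 reporter control remained among those tested. Of 23999 other probe sets, 10069 have 1 symbol, 198 several and 13732 none in the platform annotation, which can be old; 9961 matched the RefSeq table of assembly Sscrofa11.1 by gene identifier, with 0 symbols changed. Probe sets whose mean signal over the 6 arrays was under 91.3, the dimmest 40%, were dropped. Values were analysed as log2(signal + 16) with limma 3.58.1 in R 4.3.3 (lmFit, eBayes with trend) over all 6 arrays. Tests were two-sided, with 3 residual degrees of freedom. The fit was also run on simulated data with far fewer changed probe sets and no shift of scale. That run required only that known changes be estimated at the right size, so it says nothing of the calls made here. Each gene was taken at its brightest probe set. Of 1185 genes with several, 38 were called in both directions. Some named genes were called at only part of their tested probe sets. Examples are 1 of 2 for TPCN2, IFI30, GRB2, GM2A, THRA and DARS, 1 of 3 for PATL1 and 2 of 4 for SLC41A1. Probe sets of near-identical gene copies, such as ferritin or the poly(A)-binding protein, may share signal. Depth has no meaning for arrays, and their number limits the precision; medians of the signal ranged from 119.3 to 169.9.

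The members, the 36 function lists and 9 marker lists were chosen with earlier results of these data known. The naming rule took the 12 genes with the largest difference each way among called genes whose arrays do not overlap, leaving out the marker lists and 26 genes described earlier, and 2 genes each way from every function list, from which the text takes examples. Of the other 133 named, all were chosen after their values were seen. Alternatives covered the pseudocount, the filter, the scaling, the arrays in the fit, the replicate block, the mean of probe sets and each array left out. Tables were handled in pandas 2.3.3 and numpy 2.4.6 under Python 3.11.15, and figures drawn in matplotlib 3.10.9. No sequences are shown.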

Additional observations from a re-analysis of the deposited data

How the results depend on the processing

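With 2 arrays per stage, the spread rests on few values. The number of probe sets called, 6821 as analysed, ranged from 4356 to 7189 when each array was left out in turn, those higher from 2706 to 4507 and those lower from 1650 to 2682. Genes called ranged from 1614 to 2626, those higher from 827 to 1341 and those lower from 787 to 1285, with the lowest totals without the first middle array. A filter on the dimmest 60% gave 2841 probe sets called higher, of 4275 as analysed. Higher probe sets were 62.7% of those called as deposited, 47.5% with centred arrays, 53.4% after quantile normalization, 57.1% with the 60% filter and 65.3% with no filter. The median difference over probe sets was 0.22 as deposited, -0.02 with centred arrays and 0.05 after quantile normalization.

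Same-numbered replicates did not deviate together: the correlation of their deviations was 0.0593 between the middle arrays and those labelled primordial, -0.0476 between last and middle and 0.0318 between last and primordial. The fit with the replicate block gave 4145 probe sets higher and 2456 lower, 6601 in all, and 2378 genes. Of the 290 genes named by the rule or after their values were seen, 237 had a value under all 15 alternatives, and 53 had none with the 60% filter, which drops them. Where a value was given, 265 kept their call, or the lack of one, or gained one, and 25 lost it under at least 1 alternative. None of the named genes reversed its direction where it had a value.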

Other observations

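The families and genes below were chosen after their values were seen, and their shares are given beside 22.9% higher and 22.5% lower over all genes. Of 49 tested zinc finger genes, most of which encode DNA-binding proteins, 23 (46.9%) rose and 6 (12.2%) fell in the middle follicles, with a median of 0.65; the counts were 22 and 7 both with centred and with quantile-normalized arrays. Of the zinc finger genes, higher ones numbered 14 with the dimmest 60% of probe sets dropped, and lower ones numbered 3 without P1, P2 or M1. Of 10 genes of intraflagellar transport and the Bardet-Biedl complex, which build and serve the primary cilium, 7 rose and 0 fell, or 6 and 1 with centred arrays and 7 and 0 after quantile normalization. WDR19, of the ciliary return traffic, was at 291.8 and 214.3 on the arrays labelled primordial and 1372 and 1426 on the middle arrays (2.41 ± 0.25). Of 25 DNA repair genes 8 rose and 0 fell, or 6 and 2 under either other scaling and 5 rose without M1, the first middle array; FANCL, a ubiquitin ligase of crosslink repair, went from 160.0 and 169.8 to 1074 and 954.9 (2.51 ± 0.24).

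Some close relatives lay on opposite sides. LDHC, the lactate dehydrogenase of germ cells, rose from 18.2 and 23.6 to 390.0 and 275.4 (3.22 ± 0.38) while LDHA fell from 11134 and 14101 to 3209 and 3620.5 (-1.87 ± 0.24). Of the partners of melanocortin receptors, MRAP2 rose from 120.9 and 56.4 to 804.4 and 570.7 (2.80 ± 0.36) and MRAP fell from 620.3 and 564.1 to 10.8 and 77.8 (-3.60 ± 0.53). Of the protein kinase A inhibitors, PKIA rose from 62.2 and 68.8 to 494.2 and 371.5 (2.45 ± 0.24) and PKIB fell from 457.0 and 276.8 to 78.9 and 2.9 (-3.14 ± 0.65). The transcription factors MEIS1 (10.9 and 30.7 against 576.6 and 282.5; 3.57 ± 0.40) and WT1 (55.5 and 52.9 against 345.5 and 320.3; 2.31 ± 0.32) and the endolysosomal channel TPCN2 (345.7 and 370.7 against 2739.6 and 1988; 2.65 ± 0.27) were higher in the middle follicles. Differences are middle minus primordial in log2(signal + 16) with their standard error. Each gene named here was called by limma at an adjusted p of 0.05, at its brightest probe set. TPCN2 was called at 1 of its 2 tested probe sets.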
